A study of Mus musculus with 6 samples.

Results

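Transcriptomic analysis (TA) of the kidney was used here to describe 10 myeloid C-type lectin receptors, namely Clec4a1, Clec4a2, Clec4a3, Clec4d, Clec4e, Clec4n, Clec5a, Clec7a, Clec10a and Clec12a. The members were taken by gene symbol and not by a cut on their values, but with earlier results of these data known. All 10 of them were found among 36870 genes named on the array, carried by 14 of its 56605 probes. Whole kidneys came from 3 MRL/MpJ (MRL) and 3 MRL/MpJ-Fas lpr/lpr (LPR) female mice at 6 months of age, with 1 single-colour Agilent array per mouse. The LPR strain carries the lpr mutation of the death receptor gene Fas on the MRL/MpJ background that both groups share, and develops a lupus-like nephritis, so it serves as the lupus-prone strain and MRL as its control. The mutation is carried by every cell of the mouse, and the labels name no treatment.

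C-type lectin receptors are membrane proteins that bind sugars, lipids or proteins through a lectin-like domain, and those described here are known mainly from macrophages, monocytes, dendritic cells and neutrophils. Clec4e (Mincle), Clec4d (MCL) and Clec4n (Dectin-2) pair with the Fc receptor gamma chain encoded by Fcer1g, Clec5a (MDL-1) pairs with the adaptors encoded by Tyrobp and Hcst, and Clec7a (Dectin-1) signals through its own tail. These routes lead to the kinase Syk and then to the adaptor Card9. Clec12a (MICL) and Clec4a2 (DCIR) carry an inhibitory motif, whereas Clec10a (MGL1) binds galactose-type sugars.

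All values are log2 signals relative to the 75th percentile of the same array, so 0 is the level of a probe at that percentile. A call required an adjusted p under 0.05 from limma over all 39924 probes tested, a set limited to probes whose signal cleared the background in 3 or more of the 6 kidneys. The 75th percentile of the signal was 706 to 736 on the MRL arrays and 739 to 942 on the LPR arrays, with LPR 1 apart from the rest at 942. The share of spots clearing the background was 69.6% to 70.6% in MRL mice and 70.7% to 73.5% in LPR mice, the highest share being again that of LPR 1, so in both measures every LPR array lay above every MRL array. No spot was saturated. The 6 arrays lay on 1 slide, with MRL 1 to 3 and LPR 1 in its upper row and LPR 2 and 3 in the lower row. The tissue label was checked with 9 kidney epithelial genes, all of which were well above background on every array. For the strain label, the brighter Fas probe (A_55_P2091676) differed by -0.47 with adjusted p = 0.234, and a second one (A_52_P73385), above background in LPR mice alone, rose at least 1.47-fold.

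The Clec4 genes are close relatives in 1 cluster, so their probes are shown to make clear which letters each signal came from. The first 30 bases of the 60-base probe of each are given with its position on mm9 as the array files state it. Probes of different members shared no run longer than 9 bases.
Clec4e A_52_P161488, chr6:123232878-123232937, minus strand: actggatttcacctgtacttgtatctactg
Clec4d A_51_P383032, chr6:123224788-123224847, plus strand: aggatttgtaaattacctggaataacattc
Clec4n A_55_P2035018, chr6:123196969-123197028, plus strand: gtcttgccctggtttctttctatgaactgc
Clec4a1 A_66_P119968, chr6:122884578-122884637, plus strand: ctttggttttgctgatgtagaaccaacaaa
Clec4a2 A_55_P2039622, chr6:123093890-123093949, plus strand: ctctttaggaaaggaaagcaaggatagtat
Clec4a3 A_51_P147274, chr6:122919637-122919696, plus strand: gccaatggttatacatatgataatactggc

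Clec7a had 2 probes that answered differently, and both are shown for that reason, the first as its first 30 bases and the second whole. The second (A_66_P135346) spans 1645 bases of mm9 for its 60 bases, so it crosses an intron, and the array lists it for a single transcript variant, whereas the first (A_51_P246653) is listed for 3 transcripts.
Clec7a A_51_P246653, chr6:129411739-129411798, minus strand: ttaataccacccttatttccagtgtggact
Clec7a A_66_P135346, chr6:129420986-129422630, minus strand: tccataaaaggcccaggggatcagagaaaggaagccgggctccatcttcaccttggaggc

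Promoters were read from RefSeq for 8 of the 10 members, over the 250 bases upstream of each start site on GRCm38.p6. The letters GAGGAA, the core recognised by the myeloid factor PU.1, or their reverse complement TTCCTC were found in 8 of the 10 promoters of these 8 genes, and in 23.3% of all 32851 promoters of this length. Counted by gene, 7 of the 8 genes had a match. The promoters of Clec7a overlap almost wholly and hold the same match, and those of Clec4a3 overlap in part. One of the promoters of Clec4a3 and that of Clec4a2 had no match. The C/EBP-type motif TTGCNNAA, searched on both strands, was found in 2 of the 10 promoters and in 9.56% of all promoters. The interferon-stimulated element, also searched on both strands, was found in 0 of the 10 and in 2.98% of all promoters. The promoter of Clec4a2 is printed beside those of Clec4e and Clec12a, which held both of the first motifs, and of Clec5a, with matches in capitals. A match describes the letters only.
Clec4e chr6:123289872-123290121, minus strand: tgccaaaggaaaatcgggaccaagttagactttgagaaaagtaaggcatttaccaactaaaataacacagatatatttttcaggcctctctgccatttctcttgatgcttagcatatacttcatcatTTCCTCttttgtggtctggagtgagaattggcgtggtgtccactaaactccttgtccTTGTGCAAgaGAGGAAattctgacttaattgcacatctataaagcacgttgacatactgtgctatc
Clec12a chr6:129349994-129350243, plus strand: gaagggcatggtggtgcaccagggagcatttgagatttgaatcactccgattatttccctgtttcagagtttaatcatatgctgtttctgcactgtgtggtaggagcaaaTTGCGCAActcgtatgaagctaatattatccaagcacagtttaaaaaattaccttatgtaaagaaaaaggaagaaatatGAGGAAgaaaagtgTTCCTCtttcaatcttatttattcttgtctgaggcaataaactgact
Clec5a chr6:40585806-40586055, minus strand: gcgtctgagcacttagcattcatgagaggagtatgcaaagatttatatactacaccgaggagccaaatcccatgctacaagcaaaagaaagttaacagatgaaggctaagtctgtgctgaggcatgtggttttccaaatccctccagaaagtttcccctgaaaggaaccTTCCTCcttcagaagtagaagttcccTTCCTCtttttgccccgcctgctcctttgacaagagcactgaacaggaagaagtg
Clec4a2 chr6:123122440-123122689, plus strand: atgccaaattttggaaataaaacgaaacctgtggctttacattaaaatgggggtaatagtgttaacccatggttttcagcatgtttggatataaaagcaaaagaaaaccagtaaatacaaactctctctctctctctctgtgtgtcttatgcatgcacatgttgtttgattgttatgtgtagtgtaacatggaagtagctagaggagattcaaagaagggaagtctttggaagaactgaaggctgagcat

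Upregulation of 9 of the 10 receptors was found in the LPR kidney, and none of the 10 fell. Fold changes of these 9 ranged from 4.49 for Clec5a to 21.0 for Clec4d, with Clec4e at least 22.5-fold higher. Clec4a2 did not pass the test. In a whole organ, a change in the number of cells of a type and a change in RNA per cell cannot be told apart. Of the 14 probes, 12 were tested and 11 of these passed, while 6.53% of all tested probes were called higher and 6.17% lower. Clec4e entered the test through the LPR arrays alone, since none of the 3 MRL arrays measured it above background. By gene, taking the brightest tested probe, 7.12% of the 25805 genes tested were called higher and 5.47% lower. A rise of at least 10-fold was found for 6 of the 12 tested member probes and for 1.09% of all tested probes, and one of at least 4-fold for 9 of the 10 genes and for 2.93% of all genes. These sizes depended on the background correction. Under normexp with an offset of 50, which lifts low signals, the same 9 receptors passed with fold changes of 2.32 to 9.29, so that 0 member probes and 0.436% of all tested probes rose at least 10-fold, and 7 receptors and 1.66% of all genes at least 4-fold. The median log2 change of the members was 3.62, against -0.12 over all genes tested, and 2.67 under normexp.

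**Figure D1:**
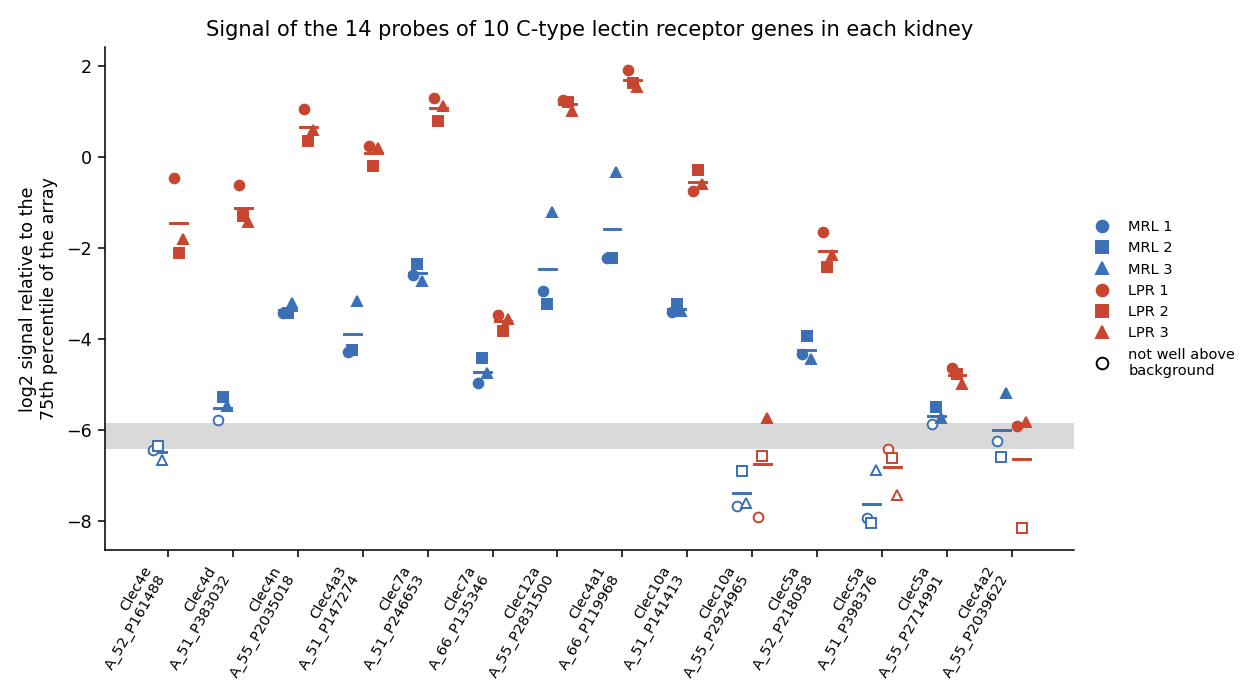
Signal of each of the 14 probes (x axis) on each array, as log2 relative to the 75th percentile of that array (y axis), with MRL mice in blue, LPR mice in red, a marker shape per mouse and a bar at each group mean. Open points were not well above background and the grey band spans the detection limits of the 6 arrays, from -6.41 to -5.88. In 11 probes all LPR points lie above all MRL points.

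The receptors that pair with the Fc receptor gamma chain are described first. Clec4e, which recognises mycobacterial cord factor and a protein of dead cells, had log2 signals of -6.44, -6.35 and -6.66 in MRL 1 to 3 and of -0.46, -2.11 and -1.81 in LPR 1 to 3. No MRL array stood above background, and LPR 1 was the highest of the 3 LPR arrays. The fitted log2 change was 5.02 ± 0.40 (SE, n = 3 and 3, adjusted p = 0.000372), and the change against the detection limit was at least 22.5-fold.

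Clec4d, a partner receptor of Clec4e, showed -5.78, -5.29 and -5.48 in MRL mice, of which 2 arrays were above background. In LPR mice it showed -0.63, -1.29 and -1.44, so the groups were far apart. The log2 change was 4.39 ± 0.24, a fold change of 21.0 (95% interval 14.2 to 31.1, adjusted p = 6.52e-05).

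Clec4n, a receptor for fungal mannan, was measured on all 6 arrays. Its log2 signals were -3.44, -3.42 and -3.22 in MRL mice and 1.06, 0.36 and 0.59 in LPR mice, a change of 4.03 ± 0.19 or 16.3-fold (adjusted p = 3.82e-05). The groups did not overlap, and the gap between the highest MRL and the lowest LPR array was 3.58. Across all tested probes, 11.0% had every LPR array above every MRL array, as 11 of the 12 tested member probes had.

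Under normexp the log2 change was 2.41 for Clec4e, 2.36 for Clec4d and 3.22 for Clec4n, all still past the threshold.

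Clec7a, the receptor for fungal beta-glucan, had log2 signals of -2.59, -2.36 and -2.72 in MRL mice and of 1.30, 0.80 and 1.11 in LPR mice with the brighter probe. The change was 3.63 ± 0.16 or 12.4-fold (adjusted p = 3.41e-05). With the probe listed for 1 variant the values were -4.97, -4.43 and -4.76 against -3.47, -3.82 and -3.57. Again no arrays overlapped, but the change was 1.10 ± 0.17 or 2.15-fold (adjusted p = 0.00769), and 0.38 under normexp. Set against each other on the same array, the probes moved apart by 2.53 between the groups, where the SD of this distance was 0.19 in MRL and 0.08 in LPR mice. The distance was larger in every LPR array, and its fit as a separate test was not made.

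Clec5a, a receptor of macrophages and neutrophils, had the smallest rise among the 9 receptors. The brightest of its 3 probes (A_52_P218058) gave -4.34, -3.94 and -4.44 in MRL mice and -1.66, -2.41 and -2.16 in LPR mice. The log2 change was 2.17 ± 0.22 or 4.49-fold (adjusted p = 0.00124), and 1.22 under normexp. A second probe (A_55_P2714991), above background on 2 of the 3 MRL arrays, gave 0.90 ± 0.14 or 1.87-fold (adjusted p = 0.00883). Under normexp that probe was at 0.07 with adjusted p = 0.562. The third (A_51_P398376) was above background on none of the 6 arrays and gives no value for the gene.

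Among the receptors of the DCIR group, Clec4a3 and Clec4a1 rose and Clec4a2 did not. Clec4a3 showed -4.29, -4.26 and -3.17 in MRL mice and 0.25, -0.19 and 0.19 in LPR mice, a change of 3.99 ± 0.31 or 15.8-fold (adjusted p = 0.000337), and 2.99 or 7.92-fold under normexp. Clec4a1 showed -2.22, -2.22 and -0.34 in MRL mice and 1.91, 1.62 and 1.54 in LPR mice, a change of 3.28 ± 0.49 or 9.71-fold (adjusted p = 0.00699). In both genes MRL 3 was well above the other MRL arrays and still below every LPR array. Clec4a2, an inhibitory receptor, was close to the detection limit. It gave -6.25, -6.60 and -5.18 in MRL mice, of which 1 array was above background, and -5.92, -8.15 and -5.83 in LPR mice, of which 2 were. The groups overlapped and the difference was -0.63 ± 0.67 (adjusted p = 0.558), a 95% interval of 0.216 to 1.95 in fold that leaves room for a change in either direction.

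Clec12a, an inhibitory receptor for uric acid crystals, showed -2.95, -3.23 and -1.21 in MRL mice and 1.26, 1.21 and 1.00 in LPR mice. MRL 3 again stood above the other MRL arrays, and the groups did not overlap. The change was 3.62 ± 0.49 or 12.3-fold (adjusted p = 0.00449).

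Clec10a is known from macrophages and dendritic cells. It showed -3.40, -3.24 and -3.38 in MRL mice and -0.76, -0.29 and -0.60 in LPR mice. The change was 2.79 ± 0.14 or 6.91-fold (adjusted p = 5.49e-05), with the smallest SE of the 10 genes, and 1.98 or 3.95-fold under normexp. Its second probe (A_55_P2924965), near the start of the coding sequence, was above background on 1 LPR array alone and was not tested.

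**Figure D2:**
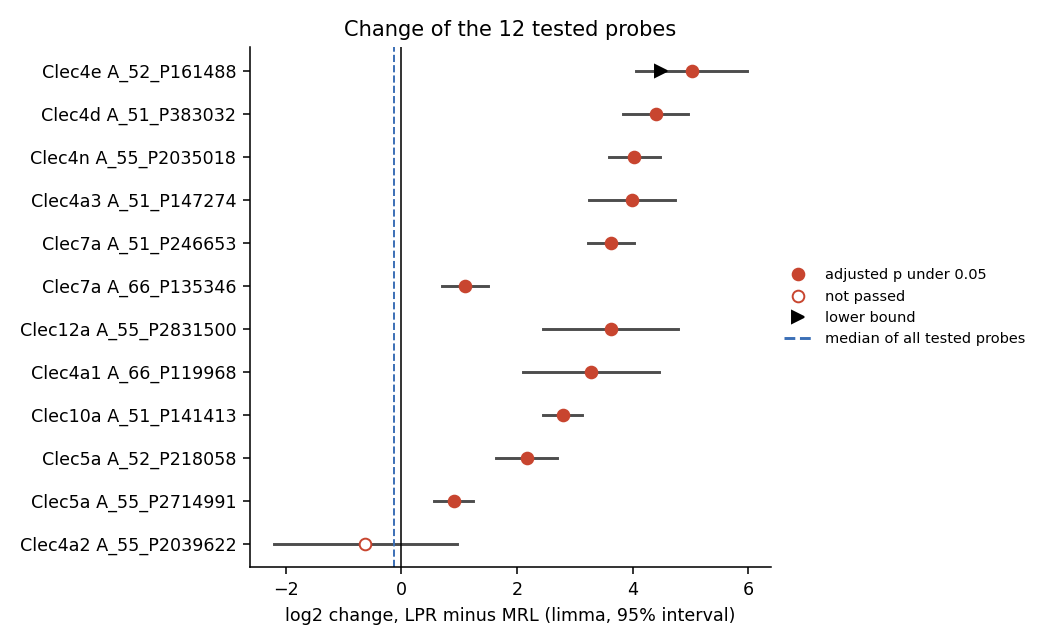
Log2 change, LPR minus MRL, of the 12 tested probes (x axis) with the 95% interval from limma (n = 3 mice per group). Filled points passed an adjusted p of 0.05, the black arrowhead marks the lower bound for Clec4e and the dashed line the median of all tested probes at -0.14. Clec4a2 is the probe whose interval includes 0.

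Ordered by the change of their brightest probe, the receptors ran from Clec4e over Clec4d, Clec4n, Clec4a3, Clec7a, Clec12a, Clec4a1, Clec10a and Clec5a to Clec4a2. Several neighbours in this order were not separated. The bound of Clec4e was 4.49, above Clec4d by 0.096, so the first place was not settled. Clec4n and Clec4a3 differed by 0.04, and Clec7a and Clec12a by 0.01. Clec12a and Clec4a1 differed by 0.34, and Clec4a1 and Clec10a by 0.49. Each of these differences was less than the larger of the SEs in the pair. Clec4d and Clec4n differed by 0.36 (SEs 0.24 and 0.19), and Clec4a3 and Clec7a by 0.36 (SEs 0.31 and 0.16). Differences between neighbours were not tested, so these places were not settled either. Under normexp the order was another, with Clec4n, Clec7a, Clec12a, Clec4a3 and Clec4a1 (3.22 to 2.92) ahead of Clec4e and Clec4d (2.41 and 2.36), while Clec10a, Clec5a and Clec4a2 again came last.

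Single mice contributed to the spread in different members. MRL 3 exceeded the mean of the other MRL mice by at least 1 on the log2 scale in Clec4a1, Clec12a, Clec4a3 and the dim Clec4a2, as it did in 234 of the 25805 genes tested or 0.907%. Without MRL 3 the change was 3.91 for Clec4a1, 4.35 for Clec4a3 and 4.25 for Clec12a. The macrophage genes Adgre1 and Aif1 were also at least 1 higher in MRL 3. LPR 1 was the highest LPR mouse in 8 of the 10 members, and it exceeded the other LPR mice by at least 0.5 in 5 of 10, against 6.59% of all genes. Without LPR 1 the change of Clec4e was 4.52. LPR 1 was also the array with the most spots above background and the single LPR array in the upper row of the slide. With slide row as a block, which leaves LPR 1 against the 3 MRL mice as the estimate, the change of Clec4a1 was 3.50 with adjusted p = 0.0674 and that of Clec12a was 3.72 with adjusted p = 0.0595. The part of slide position in the results was not tested beyond this.

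The signalling partners of the receptors moved in part. Of 13 genes, 8 rose and none fell, with a median log2 change of 1.09. Fcer1g, the gamma chain of the Fc receptor, showed 0.35, 0.38 and 1.70 in MRL mice and 3.91, 3.97 and 3.76 in LPR mice, a change of 3.07 ± 0.35 (adjusted p = 0.00207). Tyrobp, which encodes DAP12, rose by 2.83 ± 0.24 (adjusted p = 0.000478). Syk rose by 2.95 ± 0.15 (adjusted p = 5.6e-05), and Vav1, an exchange factor phosphorylated downstream of Syk, had the largest change at 3.09 ± 0.35 (adjusted p = 0.0018). The smallest rise was that of Plcg2, a phospholipase of the same route, at 0.43 ± 0.11 (adjusted p = 0.0453). Card9 was dim, above background on 2 MRL and 3 LPR arrays. Its values of -5.57, -5.50 and -5.40 in MRL mice and -5.55, -4.70 and -5.30 in LPR mice overlapped, with a difference of 0.31 ± 0.22 (adjusted p = 0.369). The other genes that did not pass were Bcl10 and Malt1, the partners of Card9, with Prkcd and Ptpn11.

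Cytokine and mediator genes known as targets of these receptors were mostly low. Of 12 listed, 7 were tested and 2 rose, with a median log2 change of 0.53. Il1b, encoding an inflammatory cytokine, showed -2.59, -2.57 and -1.58 in MRL mice and 0.72, -0.18 and -0.52 in LPR mice, a change of 2.26 ± 0.39 (adjusted p = 0.0125). Il10, encoding an anti-inflammatory cytokine, was above background on no MRL array and on all LPR arrays, and was at least 2.30-fold higher. It entered the test through the LPR arrays alone. Tnf was measured on all 6 arrays and gave a difference of 0.15 ± 0.10 (adjusted p = 0.352), while Il1a, Il23a, Csf2 and Csf3 were above background on no array.

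Other genes of the C-type lectin family were compared with the 10 receptors. Of 30 listed, 24 were tested, 8 rose and none fell, and their median log2 change was 0.40 against 3.62 for the 10 receptors. The largest rise was that of Clec4b1, a neighbour in the Clec4 cluster, at 3.47 ± 0.47 or 11.1-fold (adjusted p = 0.00451). Mrc1, the macrophage mannose receptor, rose by 2.65 ± 0.25 (adjusted p = 0.000786). Clec9a, a receptor of cross-presenting dendritic cells, rose by 2.41 ± 0.22 (adjusted p = 0.000734). The smallest rise was that of Mgl2, the close relative of Clec10a, at 0.70 ± 0.12 (adjusted p = 0.0127).

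**Figure D3:**
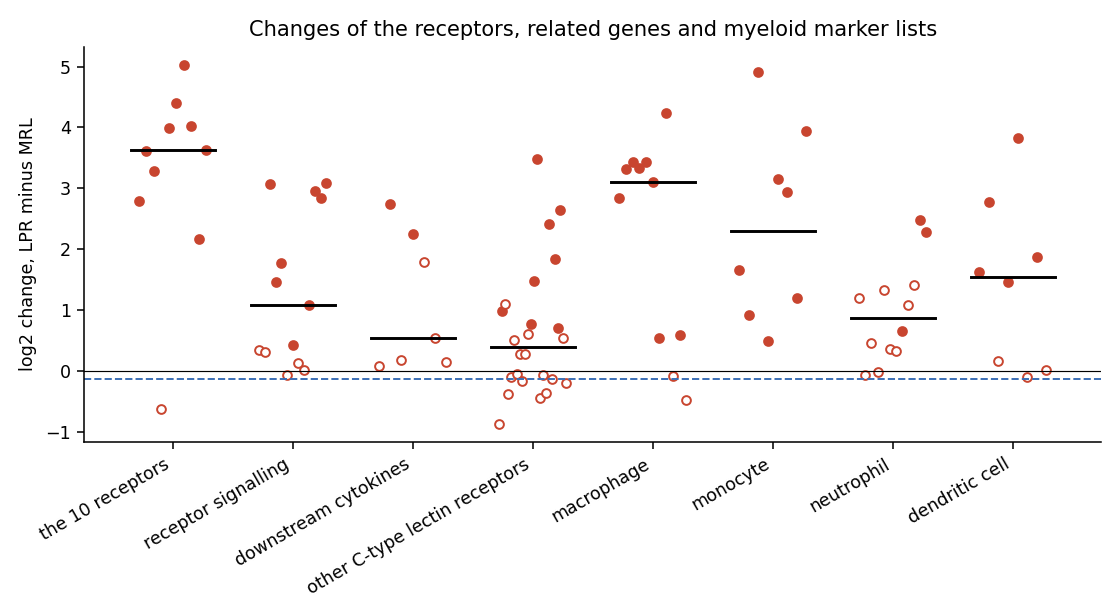
Log2 change, LPR minus MRL (y axis), of each tested gene of the 10 receptors, their related genes and the marker lists (x axis), by the brightest tested probe. Filled points passed an adjusted p of 0.05, and the short bars are list medians, 3.62 for the receptors, 1.09 for receptor signalling and 0.40 for the other C-type lectin receptors.

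Marker genes of several leukocyte types rose in the same kidneys. Of 11 macrophage markers 9 rose, with a median log2 change of 3.10, and their summed signal was 31.4 to 38.6 times the 75th percentile in MRL mice and 78.6 to 82.8 times in LPR mice. All of them were above background on every array, and Mertk at -0.47 and Itgam at -0.09 did not pass. All 8 monocyte markers rose, with a summed signal of 76.9 to 91.2 in MRL and 182 to 206 in LPR mice. Of 12 neutrophil markers 3 rose, S100a8, S100a9 and Mpo, with a median log2 change of 0.87 over the list. In 8 of the 12 every LPR array lay above every MRL array, among them Retnlg (1.42), Ltf (1.33), Camp (1.20) and Ngp (1.09), which did not pass. Summed neutrophil signals were 41.7 to 55.2 in MRL and 48.0 to 52.3 in LPR mice, but Csf3r alone, at -0.07, made up 75.3% to 95.1% of that sum. Of 8 dendritic cell markers 5 rose, Itgax most at 3.82. Among them, Xcr1 entered the test through the LPR arrays alone and was at least 1.34-fold higher. The median log2 change of the list was 1.54, and 0.94 with this bound. Sums of the 8 markers were 93.1 to 112 in MRL and 92.9 to 102 in LPR mice. Siglech alone, at -0.10, made up 95.9% to 99.4% of these sums. T cell markers rose in 5 of 6 tested, with sums of 2.75 to 3.16 and 11.6 to 13.5, B cell markers in 3 of 6 (0.688 to 0.896 and 3.53 to 4.73), and plasma cell markers in 5 of 6 (31.6 to 46.3 and 78.9 to 149.8). One B cell gene, Ms4a1, fell by 0.70 (adjusted p = 0.0497). Kidney epithelial genes summed to 649 to 685 in MRL and 529 to 572 in LPR mice, and of 9 only Lrp2 fell, by 0.39 (adjusted p = 0.0492). What part cell numbers had in the change of the receptors was not tested.

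To set the receptors beside macrophage markers, each was expressed relative to the mean of the 11 markers on the same array. That mean was -0.20, -0.20 and 0.35 in MRL 1 to 3 and 2.22, 2.19 and 2.15 in LPR 1 to 3. Relative to it, 8 receptors were higher in LPR mice with no overlap, from 0.58 for Clec10a over 1.07 for Clec4a1, 1.42 for Clec12a, 1.42 for Clec7a, 1.78 for Clec4a3, 1.83 for Clec4n and 2.19 for Clec4d to at least 2.29 for Clec4e, with signals below the detection limit raised to it (2.82 with its MRL signals as measured). The exact two-sided permutation p was 0.1 for each, the smallest that 3 against 3 mice allow, and 0.111 after adjustment over the 10 members, so no receptor could pass the threshold. Clec5a moved with the markers, at -0.04 with overlapping groups (exact p = 1). Clec4a2, at or near background, gave -2.83. The share of all tested genes with no overlap on this scale was not computed, so the count of 8 stands without a background. These values depended on the background correction, most in the dim Clec4e and Clec4d. Under normexp they were 0.46 for Clec4e, 0.41 for Clec4d, 0.03 for Clec10a and -0.73 for Clec5a. Clec4n went from 1.83 to 1.27 and Clec4a3 from 1.78 to 1.04, while Clec7a was at 1.19 and Clec12a at 1.18. In all, 5 receptors in place of 8 had no overlap between groups.

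**Figure D4:**
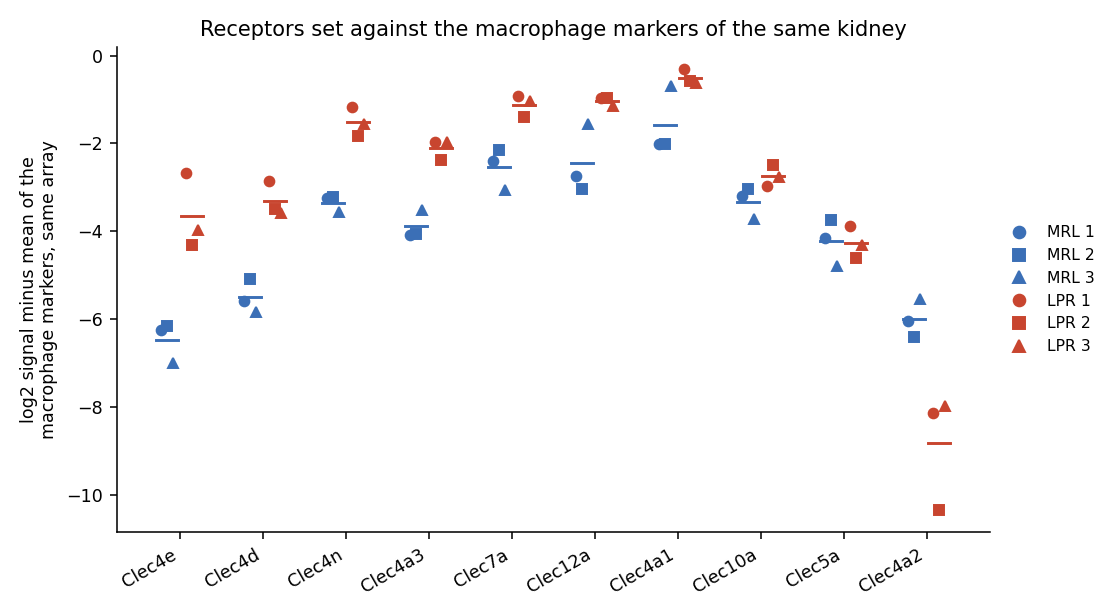
Signal of each receptor minus the mean of the 11 macrophage markers on the same array (y axis, log2), in MRL (blue) and LPR mice (red), with a point per mouse and a bar at each group mean. In 8 receptors every LPR point lies above every MRL point, in Clec5a the groups overlap and in Clec4a2 the LPR points lie lower.

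The genes whose profile over the 6 arrays was nearest to the mean profile of the 10 receptors were sought among 23310 genes above background on every array. The root mean square difference on the log2 scale was 0.095 for Mpeg1, which encodes the pore-forming perforin-2 of macrophages, and 0.097 for Plek, encoding pleckstrin of blood cells. Gpr65, an acid-sensing receptor, followed at 0.147, Irgm2, an interferon-induced GTPase, at 0.154, and Myo1f, a myosin of leukocytes, at 0.171. Their own log2 changes ran from 3.08 for Plek to 3.34 for Myo1f, a size that follows from choosing genes by this profile.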

How the data were processed

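Total RNA of whole kidneys from 3 MRL and 3 LPR mice was labelled with Cy3 and hybridised to 1-colour Agilent mouse arrays, 1 per mouse, all on 1 slide. The deposited intensity values are scanner output of Agilent Feature Extraction 12.0.3.1 (submitters' processing notes); the background-subtracted processed signal was used. A table of intensity values that the authors deposited, the same signals divided by 1 constant per array on the linear scale, served as an alternative after log2 was taken. Outlier spots were left out, spots of a probe averaged, and log2 signals shifted by the 75th percentile of each array over non-control spots. A probe was tested if well above background on at least 3 of 6 arrays. LPR and MRL were compared with limma 3.58.1 (lmFit, eBayes) in R 4.3.3, checked on simulated data, and p-values were adjusted by Benjamini-Hochberg across every tested probe, with a threshold of 0.05. Each gene was represented by its brightest tested probe. A probe above background on no MRL array has a bound: the LPR mean against, per MRL array, the higher of its own signal and the lowest signal well above background. Levels of different probes were combined in the summed signals and in the differences from the macrophage markers. They were also used to choose the brightest probe and for the distance of the Clec7a probes. Receptors were not ranked by level. The number of arrays limits the precision. Nothing states that the mice came from separate litters or days, so p-values measure only the spread between these mice.

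Named genes were all members with every probe, the 3 largest and the smallest rise of each pathway list, falling list genes where 5 or fewer, Fcer1g, Tyrobp, Syk, Card9, the 5 nearest profiles and Fas. Other named list genes were chosen after their values were seen. The members, lists and tests were chosen with earlier results of these data known. A total of 22 alternatives covered background correction, normalization, filters, floor, outliers, variance model, slide position, replicate block, the methods' t-test, single mice and the mean of probes. Sequences came from the array files (mm9) and RefSeq (GRCm38.p6); promoters of Clec4n and Clec10a and proteins are not shown. Of 14 probes, 13 carried an accession of the same current symbol. Plots were made in Python 3.11.15 (matplotlib 3.10.9).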

Additional observations from a re-analysis of the deposited data

How the results depend on the processing

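The number of receptor genes called higher was 9 under every alternative run except 7 with slide row as a block, 7 with probes above background on all 6 arrays, 7 with the methods' t-test on log2 values and 6 with that test on linear values. The filter on all 6 arrays left Clec4e, Clec4d and Clec4a2 out of the test, and every receptor it kept was called higher. The t-test on linear values called 6 member probes higher in place of 11. Leaving out each mouse in turn gave 11 to 11 member probes and 9 to 9 genes, 15 to 17 genes higher and 0 to 0 lower in the pathway lists (18 and 0 in all mice), 31 to 34 genes higher in the 7 leukocyte lists (38 in all mice), 0 to 0 kidney epithelial genes lower (1 in all mice), and 8 to 9 receptors with a higher LPR mean relative to macrophage markers. The direction of Clec4a2 reversed to 0.088 with slide row as a block, and leaving out each mouse in turn moved it from -1.03 to 0.13, the latter without LPR replicate 2. In the leukocyte lists, 25 genes were higher with slide row as a block and 25 with the t-test on linear values. In the pathway lists, 1 gene was lower under normexp and 1 with slide column as a block. The count of kidney epithelial genes lower was 2 under normexp, with the filter on all 6 arrays, with the intensity trend and with the mean of tested probes, and 0 under quantile normalization, median shift, the 75th percentile over detected probes, the authors' deposited values, no filter on dim probes, slide column as a block and the replicate block. With the replicate block, 11 member probes, 9 member genes, 19 pathway genes and 35 leukocyte genes were higher. The correlation of same-numbered mice was 0.115, 0.020 and 0.005, so the numbers do not show that mice were paired. The linear t-test lost Clec4e (adjusted p = 0.206), Clec4d (0.0679) and both Clec5a probes (0.0761 and 0.0533), and the log2 t-test Clec4a1 (0.0664) and Clec12a (0.0557). The second Clec7a probe was lost with slide row as a block (0.0501), the log2 t-test (0.0518) and the linear t-test (0.051), and the second Clec5a probe with slide column as a block (0.0808). Probes near background limit the precision of Clec4e, Clec4d and Clec4a2. The cause of these differences was not tested.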

Other observations

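Probes of other genes lying between the receptors on chromosome 6 (mm9) were counted. In the 348 kb from Clec4a1 to Clec4e, 3 of 6 other probes were tested and 2 rose, both of them of Clec4b1. In the 108 kb from Clec12a to Clec7a, 4 of 5 other probes were tested and 2 were higher, both of Clec9a, while Clec1a (0.27, adjusted p = 0.164) and Clec1b (0.61, adjusted p = 0.156) did not pass. Clec5a lies elsewhere on the same chromosome and Clec10a on chromosome 11.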
